A study of Homo sapiens with 6 samples.

Results

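The genes described here build and equip the acidic lysosome: the subunits of its proton pump, its main membrane glycoproteins and its cathepsin proteases. They were chosen by symbol, as every gene named ATP6V0 or ATP6V1 plus a subunit suffix, together with ATP6AP1, ATP6AP2, LAMP1, LAMP2, LAMP3 and the cathepsins, CTS plus 1 letter. Pseudogenes, antisense genes and a readthrough transcript were left out, and each gene was read from its brightest probe set. This gave 40 of 33458 singly named genes: 22 pump and accessory subunits, 3 LAMPs and 15 cathepsins. Values for ATP6V0A1, whose probe set also carries the name of a microRNA gene, were not analysed here, and no probe set carries the name ATP6V0A4.

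Transcripts were measured on Affymetrix whole-transcript arrays in TPC-1, an established human papillary thyroid carcinoma line. In 1 group (si-SMAD3, 3 arrays) cells received an siRNA against SMAD3, a transcription factor of the TGF-beta pathway, and in the other (si-Control, 3 arrays) a control siRNA. All wells, at about 85% confluence, received 25 pmol of siRNA with 4.5 ul of the lipid reagent RNAiMAX, and RNA was taken 24 h later. No ligand or drug is named for either group. Each group holds the arrays of replicates 1, 2 and 3. The work was repeated on 3 occasions, and the replicate number is assumed to mark the occasion, which is not stated. On that assumption, arrays with the same number are called an experiment below. The question is how the transcripts of these genes differ once SMAD3 is depleted. All levels are deposited log2 values, on which a difference of 1 is a doubling, and levels of different genes come from different probes and are not ranked against each other.

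The vacuolar proton pump (V-ATPase) is a rotary motor. Its cytosolic V1 sector hydrolyses ATP and turns a ring of proteolipids in the membrane-bound V0 sector, which carries protons into the lumen of lysosomes, endosomes and the Golgi. The acid produced activates the cathepsins, which degrade proteins in the lumen, while LAMP glycoproteins line the lysosomal membrane. Some of these genes carry, near their start sites, an E-box element of the kind bound by TFEB and related factors, which switch on lysosomal genes together. Cathepsins B and L are commonly studied in carcinoma cells, where secreted enzyme can cut extracellular matrix.

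To show that element, promoter windows of 300 bases, 250 before and 50 after the gene start, were taken from RefSeq (GRCh38.p14). They were matched for 26 of the 40 genes, in 32 windows, since a gene can have several. Searching both strands, the palindrome TCACGTGA, the centre of the TFEB element, was found in 4 of the 26 genes (15.4%), which were ATP6V0D1, ATP6V1G1, LAMP1 and CTSA. Of all 27305 genes with a window 1.18% hold it, and by window the shares are 12.5% of the 32 and 0.98% of all 35116. The shorter E-box CACGTG, which every TCACGTGA contains, was found in 8 of the 26 (30.8%) against 8.77% of all genes, adding ATP6V0B, ATP6V0E2, CTSD and CTSF. By window the shares are 28.1% and 7.26%. The palindromic SMAD binding element GTCTAGAC was found in none of the 26, and in 0.256% of all genes and 0.202% of all windows. At shares this low, none in 26 genes says little. ATP6V1A, ATP6V1B2, ATP6V1C1, CTSK and CTSO, among the genes that differed most after knockdown, had no matched window and were not searched. The windows below are those of the 4 genes with the palindrome and of ATP6V0A2 and ATP6V0B, 2 V0 genes with windows whose groups did not overlap after knockdown. Capitals mark CACGTG, which the ATP6V0A2 window lacks, and each sequence runs 5′ to 3′ on the gene's strand. They lie at chr12:123712103-123712402 (plus strand), chr1:43974710-43975009 (plus strand), chr16:67481108-67481407 (minus strand), chr9:114587519-114587818 (plus strand), chr13:113296989-113297288 (plus strand) and chr20:45891085-45891384 (plus strand).
ATP6V0A2: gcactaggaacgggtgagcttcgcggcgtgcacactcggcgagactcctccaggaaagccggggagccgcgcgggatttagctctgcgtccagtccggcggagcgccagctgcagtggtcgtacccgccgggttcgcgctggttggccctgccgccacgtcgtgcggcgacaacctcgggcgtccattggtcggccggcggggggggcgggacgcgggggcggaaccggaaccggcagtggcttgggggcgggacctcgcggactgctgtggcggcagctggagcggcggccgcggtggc
ATP6V0B: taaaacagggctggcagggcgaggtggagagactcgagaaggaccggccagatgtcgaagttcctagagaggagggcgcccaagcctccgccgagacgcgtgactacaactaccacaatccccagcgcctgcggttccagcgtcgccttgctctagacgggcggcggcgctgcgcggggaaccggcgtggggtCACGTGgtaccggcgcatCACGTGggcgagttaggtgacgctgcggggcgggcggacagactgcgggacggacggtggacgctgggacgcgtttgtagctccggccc
ATP6V0D1: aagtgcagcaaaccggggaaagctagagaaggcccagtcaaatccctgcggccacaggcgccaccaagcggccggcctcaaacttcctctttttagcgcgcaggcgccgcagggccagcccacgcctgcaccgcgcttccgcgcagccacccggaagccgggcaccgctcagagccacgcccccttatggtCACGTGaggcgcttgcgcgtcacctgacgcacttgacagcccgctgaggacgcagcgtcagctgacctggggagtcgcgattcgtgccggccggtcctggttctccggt
ATP6V1G1: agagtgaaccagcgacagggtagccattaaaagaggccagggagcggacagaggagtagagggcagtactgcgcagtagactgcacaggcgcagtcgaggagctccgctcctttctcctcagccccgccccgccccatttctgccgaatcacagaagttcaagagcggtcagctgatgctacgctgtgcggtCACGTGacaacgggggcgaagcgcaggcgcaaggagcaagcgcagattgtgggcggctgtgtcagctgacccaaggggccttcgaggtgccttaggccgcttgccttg
LAMP1: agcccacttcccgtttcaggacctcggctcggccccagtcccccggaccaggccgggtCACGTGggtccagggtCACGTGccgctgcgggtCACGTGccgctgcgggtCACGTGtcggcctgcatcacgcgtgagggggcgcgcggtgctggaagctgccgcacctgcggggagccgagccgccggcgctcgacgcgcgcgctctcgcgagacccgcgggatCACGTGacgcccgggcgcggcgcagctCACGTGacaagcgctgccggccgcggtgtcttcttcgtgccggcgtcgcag
CTSA: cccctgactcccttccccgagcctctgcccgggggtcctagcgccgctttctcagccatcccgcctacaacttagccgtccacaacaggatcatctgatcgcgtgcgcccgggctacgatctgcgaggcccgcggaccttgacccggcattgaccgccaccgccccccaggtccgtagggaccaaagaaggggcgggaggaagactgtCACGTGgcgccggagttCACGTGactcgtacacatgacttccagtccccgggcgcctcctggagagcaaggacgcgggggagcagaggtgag
In ATP6V0D1 and ATP6V1G1 the E-box begins 59 and 58 bases before the gene start. LAMP1 holds 6 E-boxes, the farthest beginning 192 bases and the nearest 1 base before it. A match of letters is a description and does not show that a factor binds there.

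SMAD3 transcript fell in every experiment, which checks the labels. It stood at 14.20, 14.21 and 14.67 in si-Control replicates 1, 2 and 3 and at 10.58, 10.03 and 10.27 in si-SMAD3. The difference of -4.06 (SE 0.22, 95% interval -4.57 to -3.56) was called by limma (adjusted p = 0.00044, with 20590 genes tested). An exact two-sided permutation test of the 6 arrays gave 0.1, the smallest that 3 arrays against 3 allow. Of all genes tested, SMAD3 alone passed the adjusted threshold of 0.05, which is 0.00486% of them. With an intensity trend and robust variances 5 genes passed, with arrays centred 3, and with the unmoderated statistic 0, where 1133 had an unadjusted p under 0.05. Across arrays the pairwise correlation over tested genes lay between 0.986 and 0.992. The replicate 2 arrays of both groups stood apart on the first principal component, with scores of 23.6 and 39.5 against -28.1 to -6.15 in the other 4.

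Markers fixed for the cell type fitted the label in part. The epithelial keratin genes KRT8 and KRT18 stood at 15.02 ± 0.34 and 13.52 ± 0.57, and the thyroid transcription factor gene PAX8 at 13.67 ± 0.29 (SD, n = 3, si-Control). KRT19 was at 5.0 ± 0.29 and FOXE1, a further thyroid factor gene, at 6.86 ± 0.22. EPCAM, CDH1, NKX2-1, TG, TSHR and SLC5A5 lay below the filter on low values. Of 7 macrophage and blood cell markers, 6 passed the filter. The lysosomal glycoprotein gene CD68 was at 8.79 ± 0.26 (SD, n = 3, si-Control), and the other 6 had group means between 3.57 and 4.93. The log2 values of the 7, with LYZ below the filter included, summed to 33.35 to 34.51 in si-Control and 33.07 to 34.32 in si-SMAD3. Of 4 fibroblast markers 3 passed the filter, with COL1A1 at 8.4 ± 0.25, COL1A2 at 6.50 ± 0.57 and PDGFRB at 3.75 ± 0.40 in si-Control. PDGFRB passed only through si-SMAD3, where it was at 4.15 ± 0.16 (SD, n = 3). The log2 values of the 4, with PDGFRA below the filter included, summed to 21.45 to 23.15 in si-Control and 22.92 to 23.42 in si-SMAD3. The part this plays in the results was not tested. All 3 osteoclast markers with a probe set, CALCR, DCSTAMP and OCSTAMP, lay below the filter.

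After SMAD3 knockdown no lysosomal gene of the 40 passed the adjusted threshold. The values that differed most were spread over both directions and over subunits of the same pump: the catalytic subunit gene ATP6V1A was higher by 0.76 and cathepsin K (CTSK) by 0.81, while the V1 subunit genes ATP6V1B2 and ATP6V1C1, the V0 gene ATP6V0A2 and cathepsin O (CTSO) were lower by 0.49 to 0.83 on the log2 scale. A filter at 3.93, the median of all probe sets, left 33 of the 40 for testing. Of these, 16 had a difference above 0 and 17 below, where 47.2% of all genes tested lay below, with a median of -0.04 against 0.02 over all genes tested. Among the 17, CTSE, CTSF and CTSS had si-SMAD3 means below the filter and passed it only through si-Control. With no filter the median over the 40 genes was 0.01. The median size of the difference was 0.23 against 0.17.

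By limma 6 of the 33 had an unadjusted p under 0.05, which is 18.2%, where 5.74% of all genes did. These were 2 higher and 4 lower, against 2.71% and 3.03% of all genes. The smallest adjusted p among the 33 was 0.80. In 7 genes the groups did not overlap (21.2%, against 11.0% of all genes), 2 higher and 5 lower (5.75% and 5.28% of all genes). Leaving out 1 array gave between 3 genes (without si-Control replicate 3) and 8 genes (without si-Control replicate 2) at an unadjusted p under 0.05, where 5.59% and 7.28% of all genes had one. Without both replicate 2 arrays, an alternative chosen after seeing the data, there were 5, where 6.61% of all genes had one.

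**Figure D1:**
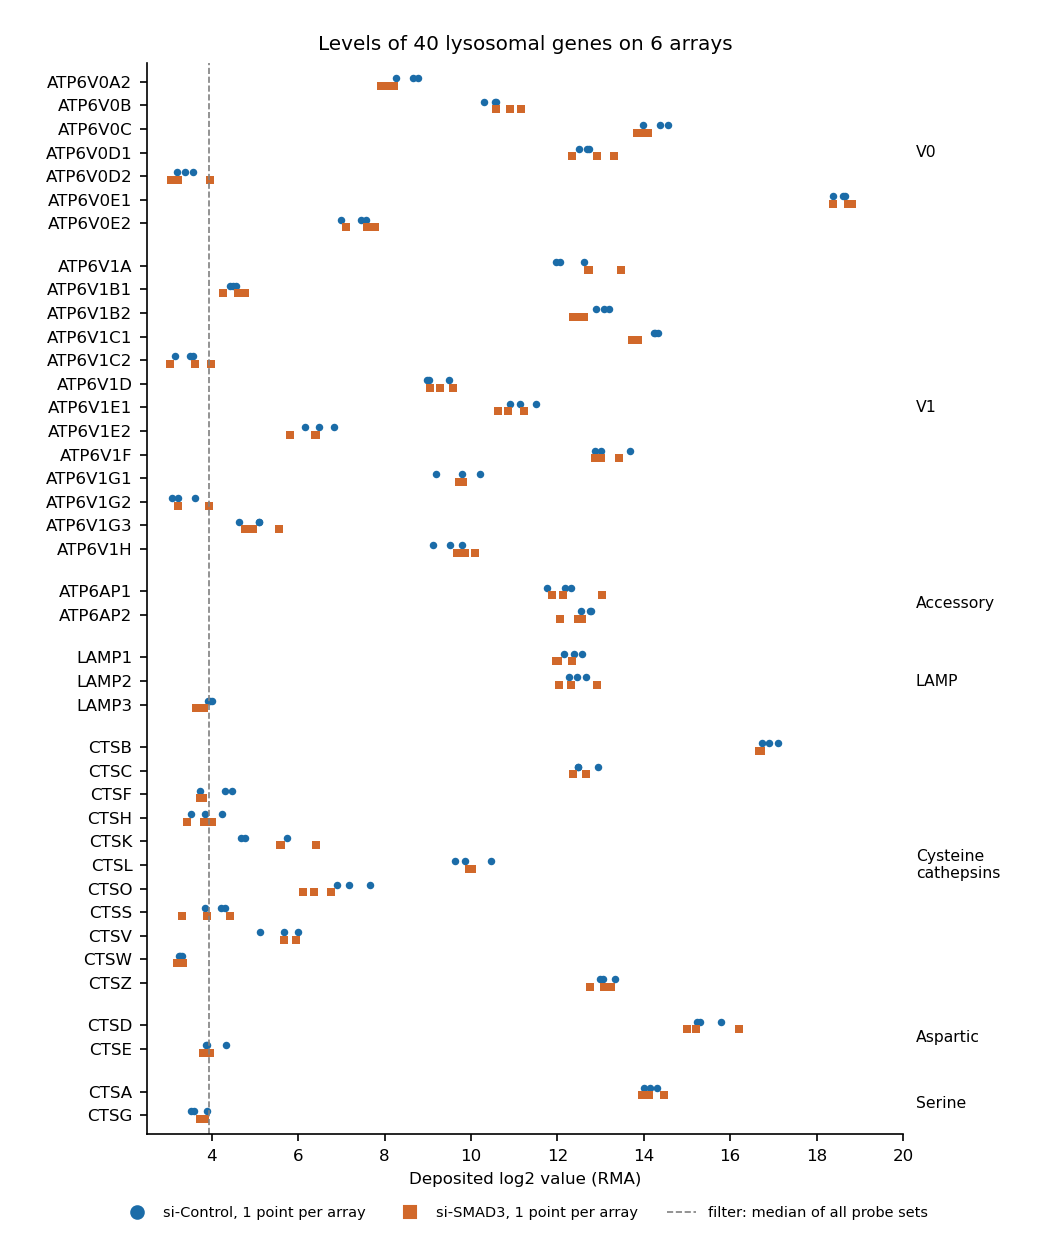
Deposited log2 value (horizontal axis) of the 40 genes in the 3 si-Control arrays (circles) and the 3 si-SMAD3 arrays (squares), ordered by role. The dashed line is the filter at 3.93, and 7 genes, among them ATP6V0D2, ATP6V1C2, ATP6V1G2, LAMP3 and CTSG, have their mean to its left.

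**Figure D2:**
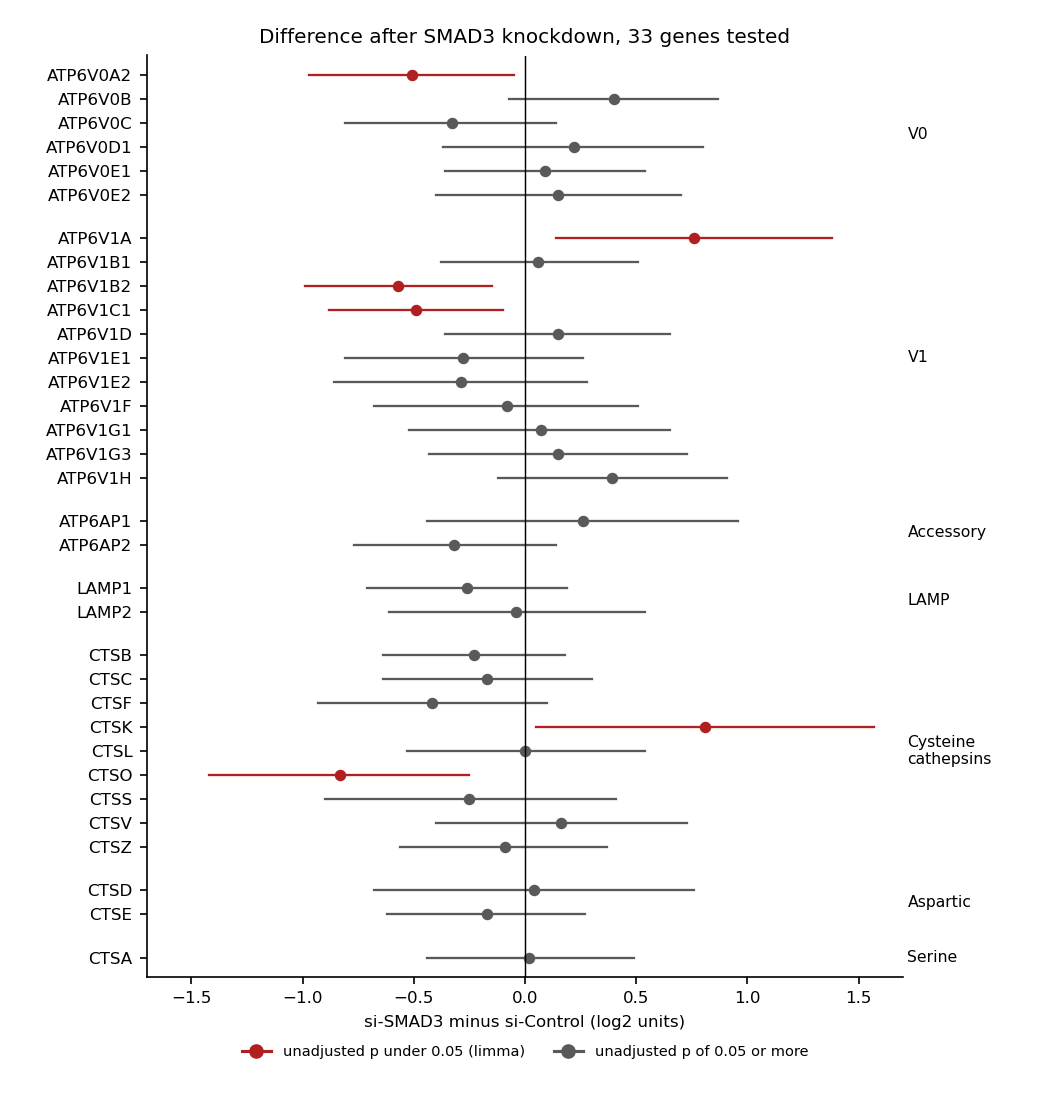
Difference, si-SMAD3 minus si-Control in log2 units, with the 95% interval of limma's moderated test for the 33 genes tested. The 6 intervals in red exclude 0 and belong to ATP6V0A2, ATP6V1A, ATP6V1B2, ATP6V1C1, CTSK and CTSO, of which 2 lie to the right of 0 and 4 to the left.

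The V0 sector holds the proton path. Of its 7 genes 6 were tested, 4 above and 2 below 0, with a median difference of 0.12. By limma 1 had an unadjusted p under 0.05 (16.7%, against 5.74% of all genes). That was ATP6V0A2, an isoform of the large membrane subunit a, through which protons pass beside the ring. Its values for replicates 1, 2 and 3 were 8.66, 8.27 and 8.77 in si-Control and 7.91, 8.21 and 8.06 in si-SMAD3. Every knockdown value lay below every control value, but only by a narrow margin in experiment 2, where the difference was -0.06, against -0.75 and -0.72 in experiments 1 and 3. The mean difference was -0.51 (SE 0.20, 95% interval -0.97 to -0.05), with an unadjusted p of 0.034 and an adjusted p of 0.86 by limma. Without si-Control replicate 3 the difference was -0.41, with an unadjusted p of 0.11 by limma.

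ATP6V0B, which encodes a proteolipid of the rotor ring, went the other way. It was at 10.31, 10.58 and 10.55 in si-Control and at 10.90, 11.16 and 10.59 in si-SMAD3. The groups did not overlap, yet the lowest knockdown value, in experiment 3, exceeded the highest control value by little. The difference was 0.40 (SE 0.21, 95% interval -0.07 to 0.87), with an unadjusted p of 0.084 and an adjusted p of 0.88 by limma. Its partner ATP6V0C, the main proteolipid of the ring, was at 14.56, 13.98 and 14.38 in si-Control and 14.10, 13.99 and 13.84 in si-SMAD3. These groups overlapped, since si-Control replicate 2 was as low as the knockdown arrays, and the difference was -0.33 (95% interval -0.81 to 0.14).

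ATP6V0E1, a small membrane subunit of unclear function, was near the top of the scale at 18.37, 18.61 and 18.65 in si-Control and 18.73, 18.81 and 18.37 in si-SMAD3. It was below the ceiling of 19.93 on all arrays, and its groups overlapped (difference 0.09, 95% interval -0.36 to 0.54). The subunit d gene ATP6V0D1, which couples the ring to the central stalk, differed by 0.22, and ATP6V0E2 by 0.15, both with overlapping groups. ATP6V0D2, the d isoform of osteoclasts and kidney, was below the filter at a mean of 3.4. ATP6V0C and ATP6V0E1 have near-identical pseudogene copies. The ATP6V0CP3 probe set read 9.40 ± 0.22 in si-Control and 9.43 ± 0.23 in si-SMAD3 (SD, n = 3). Those of ATP6V0CP1 and ATP6V0CP2 had means of 2.84 and 4.15. The probe sets of ATP6V0E1P1, ATP6V0E1P2, ATP6V0E1P3 and ATP6V0E1P4 had means of 3.46, 5.03, 4.40 and 4.18. Whether signal of these 2 genes is shared with copies was not tested.

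In the V1 sector the genes of neighbouring subunits of one catalytic head lay in opposite directions, with none called. Of 13 genes 11 were tested, 6 above and 5 below 0, with a median of 0.06. By limma 3 had an unadjusted p under 0.05 (27.3%, against 5.74% of all genes). ATP6V1A encodes subunit A, which hydrolyses ATP. Its values were 11.96, 12.61 and 12.05 in si-Control and 12.72, 13.47 and 12.70 in si-SMAD3. All 3 knockdown arrays exceeded all 3 controls, and the replicate 2 array was the highest of each group. The difference was 0.76 (SE 0.27, 95% interval 0.14 to 1.38), a 1.69-fold higher level on this scale. Within experiments it was 0.76, 0.86 and 0.65. The unadjusted p was 0.022 and the adjusted p 0.82 by limma, and with the replicate number as a block they were 0.0041 and 0.58. Without si-SMAD3 replicate 2 the difference was 0.50, and leaving out each array in turn gave an unadjusted p between 0.0086 and 0.081 by limma.

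ATP6V1B2 encodes the B subunit, which alternates with A around the head and binds nucleotide without being the main site of hydrolysis. It was at 12.90, 13.20 and 13.09 in si-Control and at 12.49, 12.62 and 12.37 in si-SMAD3. The groups were well apart, and the difference of -0.57 (SE 0.18, 95% interval -0.99 to -0.15) came from -0.41, -0.58 and -0.72 within experiments. By limma the unadjusted p was 0.013 and the adjusted p 0.81. Leaving out 1 array moved the difference between -0.65 and -0.50, with an unadjusted p between 0.014 and 0.046.

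ATP6V1C1 encodes the C subunit, which clamps V1 to V0 and is released when the pump comes apart. Its values were 14.32, 14.23 and 14.27 in si-Control and 13.87, 13.73 and 13.75 in si-SMAD3. This gene had the least spread of the 6 with an unadjusted p under 0.05, with SDs of 0.05 and 0.07 (n = 3). The difference was -0.49 (SE 0.17, 95% interval -0.88 to -0.10), and within experiments it was -0.45, -0.50 and -0.52. Its adjusted p was 0.81 by limma. Leaving out 1 array gave an unadjusted p between 0.032 and 0.051.

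The other V1 genes overlapped between groups. ATP6V1F, part of the central rotor, was at 12.88, 13.00 and 13.69 in si-Control and 13.02, 13.43 and 12.88 in si-SMAD3 (difference -0.08). ATP6V1H, the regulatory subunit that silences free V1, differed by 0.39 (95% interval -0.12 to 0.91) and was higher in all 3 experiments, by 0.29, 0.16 and 0.74. The peripheral stalk gene ATP6V1E1 was lower by 0.28, 0.28 and 0.27 in experiments 1, 2 and 3. Its difference of -0.28 still had an interval of -0.81 to 0.26, and the control values ran from 10.90 to 11.51. The stalk partner ATP6V1G1 differed by 0.07, and here the controls ran from 9.18 to 10.20 while the knockdown arrays lay between 9.73 and 9.82. ATP6V1E1 and ATP6V1G1 also have pseudogene copies whose probe sets can share signal with theirs.

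ATP6V1D, the rotor shaft, differed by 0.15. A further probe set of it, at a mean of 6.01, gave 0.52. The testis-enriched isoform gene ATP6V1E2 differed by -0.29, and 2 isoform genes known from kidney, ATP6V1B1 and ATP6V1G3, by 0.06 and 0.15 at means of 4.51 and 5.02. ATP6V1C2 and ATP6V1G2, isoforms of restricted tissues, were below the filter at means of 3.47 and 3.50.

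**Figure D3:**
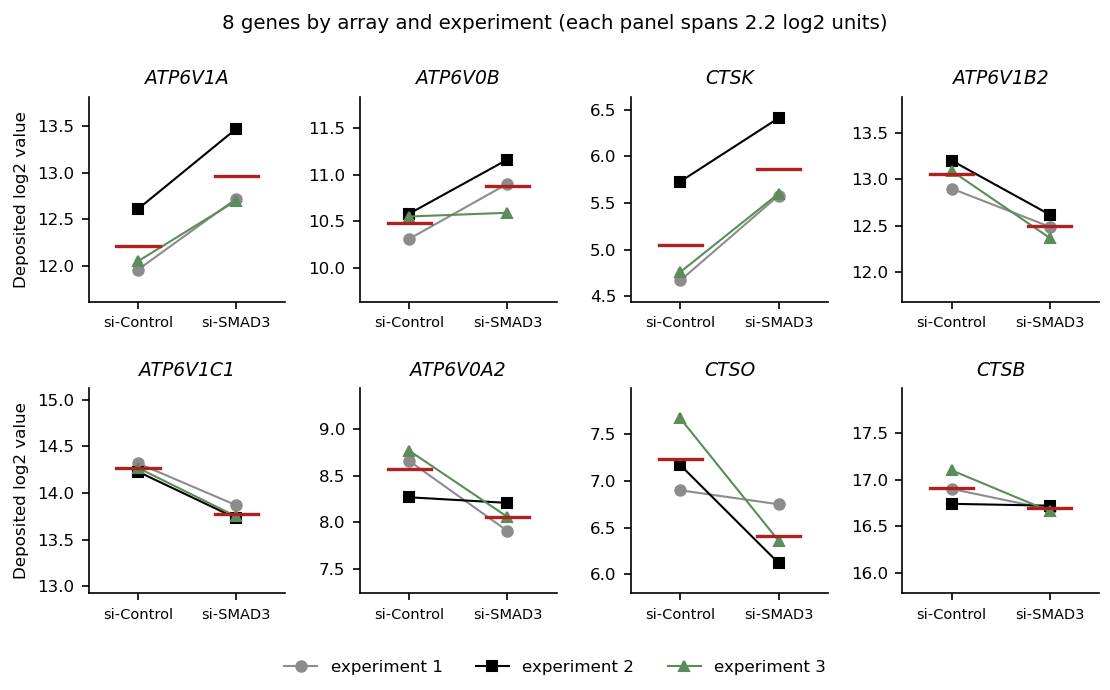
Deposited log2 value in si-Control and si-SMAD3 arrays for 8 genes: the 6 with an unadjusted p under 0.05, and ATP6V0B and CTSB, whose groups did not overlap. Lines join arrays of the same experiment and red bars are group means. ATP6V1A and CTSK were higher in each experiment, with replicate 2 above the others, while ATP6V1B2 and ATP6V1C1 were lower in each by 0.41 to 0.72.

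Neither accessory subunit nor any LAMP had an unadjusted p under 0.05 by limma. ATP6AP1, a chaperone of V0 assembly, was at 11.77, 12.17 and 12.31 in si-Control and 11.87, 13.03 and 12.13 in si-SMAD3. Its difference of 0.26 rested on the si-SMAD3 replicate 2 array, and without that array it was -0.08. ATP6AP2, also known as the prorenin receptor, was at 12.75, 12.77 and 12.55 against 12.57, 12.48 and 12.07. It was lower in all 3 experiments (-0.18, -0.28 and -0.48), with a mean difference of -0.32 (95% interval -0.77 to 0.14).

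The abundant lysosomal glycoprotein genes LAMP1 and LAMP2 overlapped between groups. LAMP1 was at 12.38, 12.15 and 12.56 in si-Control and 11.97, 12.33 and 12.02 in si-SMAD3, a difference of -0.26 (95% interval -0.71 to 0.19). LAMP2, whose splice forms include the receptor of chaperone-mediated autophagy, was at 12.26, 12.66 and 12.46 against 12.31, 12.92 and 12.04 (difference -0.04, 95% interval -0.61 to 0.54). Experiment 2 differed in sign from experiment 3 for both. LAMP3, a marker of mature dendritic cells, lay around the filter, at 3.96 ± 0.04 in si-Control and 3.71 ± 0.10 in si-SMAD3 (SD, n = 3). Its groups did not overlap, but with a mean of 3.83 it was not tested.

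Among the cysteine cathepsins, CTSK and CTSO had the largest differences, in opposite directions. Of 11 genes 9 were tested, 3 above and 6 below 0, with a median of -0.17. The 6 include CTSF and CTSS, which passed the filter only through si-Control. Their means were 4.17 and 4.12 there, against 3.75 and 3.87 in si-SMAD3, so the sign of their differences follows from the filter. CTSO, a widely expressed and little studied cathepsin, was at 6.90, 7.17 and 7.67 in si-Control and 6.75, 6.12 and 6.36 in si-SMAD3. The groups did not overlap, although in experiment 1 the difference was only -0.14, against -1.05 and -1.31 in experiments 2 and 3. On average it was lower by 1.78-fold on this scale, a difference of -0.83 (SE 0.26, 95% interval -1.42 to -0.25). Its unadjusted p of 0.010 was the smallest of the 33 genes, with an adjusted p of 0.80 by limma. Leaving out 1 array gave between -1.01 and -0.62.

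CTSK encodes cathepsin K, the collagen-degrading protease of osteoclasts. It was at 4.67, 5.73 and 4.76 in si-Control and 5.58, 6.41 and 5.60 in si-SMAD3. The groups overlapped because si-Control replicate 2 lay above 2 of the knockdown arrays, but the experiments differed by 0.91, 0.68 and 0.84. The difference was 0.81 (SE 0.33, 95% interval 0.05 to 1.57), with an unadjusted p of 0.038 and an adjusted p of 0.86 by limma. With the replicate block, which rests on the assumed pairing, the error was 0.18 and these were 0.0029 and 0.56 by limma. Without si-SMAD3 replicate 2 the CTSK difference was 0.54. Leaving out each array in turn gave CTSK an unadjusted p between 0.004 and 0.14 by limma, and the unmoderated statistic gave 0.14. For ATP6V0A2, ATP6V1B2, ATP6V1C1 and CTSO the block raised the unadjusted p, to 0.049, 0.018, 0.029 and 0.015 by limma. Of the osteoclast markers CALCR, DCSTAMP and OCSTAMP, none exceeded 3.83 on any array.

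CTSB, CTSZ, CTSC and CTSL had overlapping or nearly touching groups. CTSB, encoding cathepsin B, was at 16.90, 16.74 and 17.10 in si-Control and 16.68, 16.72 and 16.66 in si-SMAD3. All knockdown values were lower, narrowly so in experiment 2 (-0.02), and the difference was -0.23 (95% interval -0.64 to 0.18). A further probe set of CTSB, below the filter at a mean of 3.65, gave 0.13. With its probe sets averaged the CTSB difference was -0.05. CTSZ, a carboxypeptidase, was at 13.33, 12.98 and 13.06 against 13.09, 13.25 and 12.76 (difference -0.09). The dipeptidyl peptidase gene CTSC differed by -0.17 and the endopeptidase gene CTSL by 0.00 (95% interval -0.53 to 0.54). For CTSL the controls ran from 9.63 to 10.47 and the knockdown arrays from 9.95 to 10.03.

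The other cysteine cathepsin genes had overlapping groups. CTSV, the thymic and epidermal relative of CTSL, differed by 0.16 at a mean of 5.68. CTSF, at a mean of 3.96, and CTSS, the antigen-processing cathepsin of immune cells, at 3.99, were the members just above the filter together with the aspartic CTSE at 3.94. CTSF was at 4.47, 3.72 and 4.31 in si-Control and 3.73, 3.79 and 3.73 in si-SMAD3. This gave -0.42 (95% interval -0.93 to 0.10), and si-Control replicate 2 lay as low as the knockdown arrays. CTSH, at 3.81, and the lymphocyte gene CTSW, at 3.28, fell short of the filter.

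CTSD, the main aspartic cathepsin, was among the genes whose arrays differed most between experiments. It was at 15.29, 15.78 and 15.24 in si-Control and 15.21, 16.21 and 15.01 in si-SMAD3. The replicate 2 array was the highest of both groups, and the knockdown difference was 0.04 (95% interval -0.68 to 0.76). CTSE, a gastric and immune cell protease, was at 4.32, 3.87 and 3.89 against 3.82, 3.95 and 3.79 (difference -0.17). The serine carboxypeptidase gene CTSA, whose product also protects beta-galactosidase and neuraminidase, was at 14.01, 14.15 and 14.31 against 14.12, 14.47 and 13.95 (difference 0.02, 95% interval -0.44 to 0.49). The neutrophil protease gene CTSG was at 3.58, 3.51 and 3.90 against 3.79, 3.85 and 3.73, with a mean below the filter.

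Within experiments the difference is 1 array against 1, so whether it differed between experiments could not be tested, and the values are a description. Pairing rests on the assumption that the replicate number marks the occasion, which the values of replicate 3 do not show. Of the 12 cathepsins tested, 10 were higher after knockdown in experiment 2, while in experiment 3 all but CTSK were lower. Of all genes tested 42.9% and 57.4% were lower in experiments 2 and 3, and of the 84 further lysosomal genes tested 32.1% and 72.6%. Among the 12 cathepsins, CTSE, CTSF and CTSS passed the filter only through si-Control. The median difference of the 12 cathepsins was -0.09, 0.23 and -0.40 in experiments 1, 2 and 3. For the 19 pump and accessory genes it was 0.13, -0.06 and -0.18, over the 84 further lysosomal genes 0.05, 0.20 and -0.24, and over all genes tested 0.04, 0.07 and -0.08. Of the 33 genes 25 were below 0 in experiment 3 (75.8%), against 57.4% of all genes tested. The same sign in all 3 experiments was seen for 11 of 33 genes, where 27.9% of all genes kept 1 sign. Of these 7 were lower and 4 higher, against 13.4% and 14.5% of all genes. The 4 higher genes were ATP6V0B, ATP6V1A, ATP6V1H and CTSK.

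**Figure D4:**
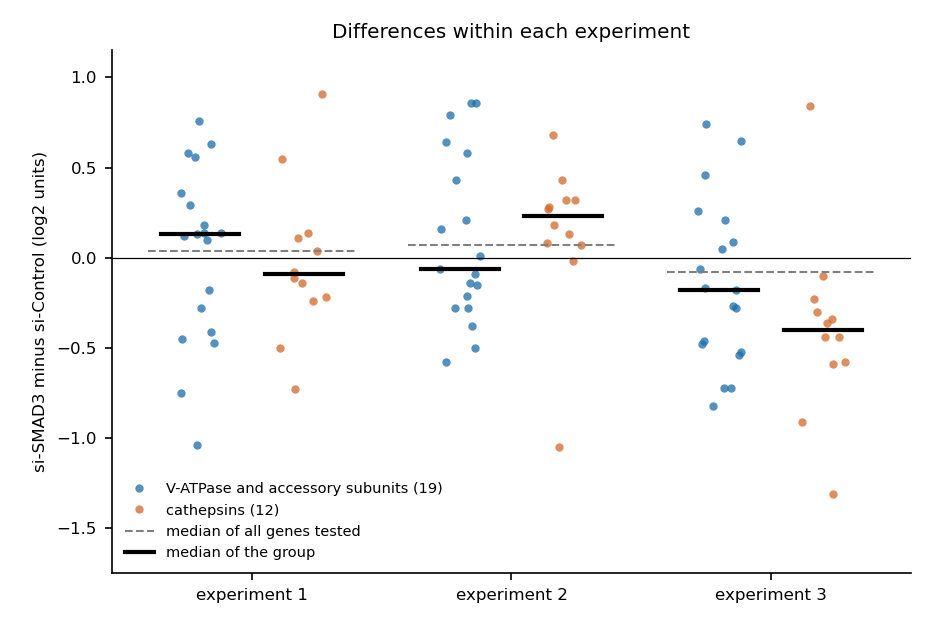
Difference within each experiment, si-SMAD3 minus si-Control in log2 units, for the 19 pump and accessory genes and the 12 cathepsins that were tested. Each point is a gene, black bars are group medians and dashed lines the median of all genes tested. The cathepsin median lies at 0.23 in experiment 2 and at -0.40 in experiment 3.

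Differences between experiments themselves were tested with limma's F test on the replicate number beside the group. No gene passed the adjusted threshold (0% of all 20590 genes), and 3 of the 33 had an unadjusted p under 0.05 (9.09%, against 8.24% of all genes). These were CTSK (0.0065), CTSD (0.023) and ATP6V1A (0.027) by limma, all highest in replicate 2. In both groups replicate 2 was the highest array for 9 of the 33 genes (27.3%), against 14.6% of all genes, and the lowest for 3, against 14.8%. Of the 84 further lysosomal genes it was the highest in both groups for 21 (25.0%) and the lowest for 5. The arrays of replicate 2 are the ones that stood apart on the first principal component, and the part this plays in these values was not tested.

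The rest of the lysosome was read from 6 further lists of 106 genes, with 84 tested among the 91 that had a probe set of their own. None passed the adjusted threshold. By limma 1 had an unadjusted p under 0.05 (1.19%, against 5.74% of all genes) and 6 had groups that did not overlap (7.14%, against 11.0%). The median difference was 0.04, with 46 genes above and 38 below 0. The 1 gene was OXR1, which encodes a TLDc-domain protein. It was at 10.57, 10.47 and 10.22 in si-Control and 10.11, 10.04 and 9.67 in si-SMAD3, a difference of -0.48 (adjusted p = 0.86 by limma).

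Among 10 tested pump partners and assembly factors, 4 lay above and 6 below 0. TCIRG1, the osteoclast and lysosomal isoform of subunit a, was at 9.85, 8.94 and 10.24 in si-Control and 10.48, 10.48 and 10.09 in si-SMAD3. Its difference of 0.67 lay opposite to that of ATP6V0A2, and its groups overlapped. Without si-Control replicate 2, the lowest array, it was 0.30. DMXL1, a partner in pump reassembly, differed by -0.38. Of 9 cathepsin inhibitors and partners 4 lay above and 5 below 0, with the cystatin genes CST3 at 0.35, CST4 at -0.53 and CST2 at 0.29. The cystatin C gene CST3 was at 12.11 ± 0.17 in si-Control and 12.46 ± 0.44 in si-SMAD3 (SD, n = 3).

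Other lysosomal hydrolases and cofactors had 14 of 26 tested genes above and 12 below 0, with a median of 0.02. IDS, the iduronate sulfatase, differed by -0.57, the phospholipase gene PLA2G15 by 0.42 and the acid glucosidase gene GAA by -0.28. Membrane proteins, channels and transporters had 13 of 18 above and 5 below 0, with a median of 0.11. The cholesterol exporter gene NPC1 was at 16.16, 16.30 and 16.61 in si-Control and 15.97, 15.91 and 15.93 in si-SMAD3. Its groups did not overlap, and its difference of -0.42 had an unadjusted p of 0.055 by limma. The chloride-proton exchanger gene CLCN7 differed by 0.43 and its beta subunit gene OSTM1 by -0.37.

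Of 8 tested genes that deliver enzymes to lysosomes 6 lay above and 2 below 0, with GGA3 at 0.36, GGA1 at 0.17 and NAGPA at -0.15. Biogenesis factors and mTORC1 docking genes had 5 of 13 above and 8 below 0. Here the Rag GTPase genes RRAGC and RRAGD stood at 0.37 and -0.34, and the repressor gene ZKSCAN3 at 0.20. RNA was taken from whole cultures, so fewer cells expressing a gene and less of its RNA per cell cannot be told apart in any of these values.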

How the data were processed

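The authors deposited log2 values for every probe set and array. RMA and Affymetrix Expression Console are named in the submitters' processing notes, without a version, and no source used here gives the annotation or genome build. Array medians were 3.94 to 3.96, so a global change in RNA cannot be seen. The values reach a ceiling of 19.93 and their range is wide for RMA output, so differences and folds are on the deposited scale.

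Of 138745 probe sets, 36176 carry 1 gene symbol in the platform table. Symbols were updated through a RefSeq gene table (GRCh38.p14). The rule matched 58 probe sets. Of these 13 pseudogene, 2 antisense and 1 readthrough probe sets were left out, and 2 genes had a second, dimmer probe set. Genes with a mean of at least 3.93, the median of all probe sets, were tested: 20590 genes, 33 of the 40.

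Groups and replicate numbers came from the sample titles. The test was limma 3.58.1 (lmFit, eBayes) in R 4.3.3, 2-sided, with Benjamini-Hochberg adjustment over all 20590 genes, a threshold of 0.05 and no further term. It was also run on simulated data with independent noise and no difference between experiments, and the outcome is not reported here. By the design text the work was repeated on 3 occasions, which the replicate number is taken to mark without a statement of this. Deviations of same-numbered arrays correlated at 0.15, 0.22 and 0.05 for replicates 1, 2 and 3, and other pairs at -0.18 to 0.06. The value for replicate 3 lies within the range of other pairs, so the pairing called experiment 3 is not shown by the values. Alternatives changed the filter, variance model, probe set choice, centring, arrays and the block. Genes shown by array are those with an unadjusted p under 0.05, those whose groups do not overlap and the 2 with the highest mean in each role, and up to 3 genes of smallest p in each further list. Others shown by array were chosen after their values were seen. The genes and lists were chosen with earlier results of these data known. CD68 and ACP5 stand both in a lysosomal list and in a marker list.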

Additional observations from a re-analysis of the deposited data

How the results depend on the processing

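No lysosomal gene of the 40 was called under any of the 16 alternative fits or with p adjusted over all probe sets, and none was called for a difference between experiments in any fit where that was tested. SMAD3 (-4.06) lost its call only with the unmoderated statistic (adjusted p = 0.55, difference -4.06) and kept it with the replicate block (adjusted p = 0.0059); leaving out 1 array gave -4.21 to -3.91. The replicate block changed no other call and also left 6 genes at an unadjusted p under 0.05, where 6.98% of all genes had one. Leaving out 1 array gave 3 to 8 such genes, where 4.83% to 7.28% of all genes had such a p. It gave 8 to 14 genes whose groups did not overlap in place of 7, a count that grows with fewer arrays. Over all genes the share without overlap then was 19.4% to 23.7%. The highest count, 14 (42.4%, against 20.7% of all genes), came without si-SMAD3 replicate 2. It was 18 without both replicate 2 arrays (54.5%, against 36.6% of all genes). The further lysosomal genes at an unadjusted p under 0.05 numbered 2 with no filter, with a mean of at least 6, with an intensity trend, with the unmoderated statistic, with centred arrays and with variances moderated over all probe sets. In these fits 5.39% to 6.27% of all genes had one. The further lysosomal genes numbered 3 with the replicate block (against 6.98% of all genes) and 3 without both replicate 2 arrays (against 6.61%). When 1 array was left out they numbered 1 to 5, where 4.83% to 7.28% of all genes had such a p.

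Of the 33 genes tested, 19 kept the sign of their difference in every fit that held them. Among them were the 6 named with an unadjusted p under 0.05. CTSK, at a mean of 5.46, was not in the fit of genes with a mean of at least 6. In that fit 5 of 26 genes tested had an unadjusted p under 0.05 by limma, where 6.27% of all genes had one. With arrays centred, CTSL was at -0.03 and CTSA at -0.01. Without both replicate 2 arrays ATP6V0E2 was at -0.17, ATP6AP1 at -0.04, CTSD and CTSL at -0.15 and CTSA at -0.13. Leaving out 1 array turned 14 genes, whose ranges were -0.08 to 0.50 for ATP6AP1, -0.01 to 0.48 for ATP6V0D1, -0.02 to 0.34 for ATP6V0E2, -0.04 to 0.20 for ATP6V1B1, -0.24 to 0.17 for ATP6V1F, -0.20 to 0.30 for ATP6V1G1 and -0.09 to 0.31 for ATP6V1G3. They were -0.12 to 0.14 for CTSA, -0.33 to 0.27 for CTSD, -0.17 to 0.24 for CTSL, -0.52 to 0.04 for CTSS, -0.08 to 0.37 for CTSV, -0.20 to 0.05 for CTSZ and -0.29 to 0.15 for LAMP2. The cause of these changes was not tested. Precision is limited by the number of arrays.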
